A study of Mus musculus with 6 samples.

Results

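The family of the microRNAs (miRNAs) miR-103 and miR-107 comes from 3 hairpins that lie in introns of the pantothenate kinase genes Pank1, Pank2 and Pank3. The family was taken by name from a table of 1626 mature mouse miRNAs, and 4 of its 5 listed products had a row. These were the guide strands mmu-miR-103-3p and mmu-miR-107-3p and the passenger strands mmu-miR-103-1-5p and mmu-miR-107-5p, written below without the species prefix. The remaining product, mmu-miR-103-2-5p, was not analysed here. Beyond their names, members were selected on having counts in the table, and the family was proposed with the higher guide counts of the KO libraries known, so those guide values are given as a description. Counts came from 6 small RNA libraries of C57BL/6J mouse fetal liver, 3 from wild-type embryos (WT, libraries 1 to 3) and 3 from embryos homozygous for a deletion of the miR-144/451 locus (KO, libraries 4 to 6; genotype miR-144/451-/-). Each library was made from 5000000 fetal liver cells, and the labels give neither the embryonic day nor whether replicates were separate embryos, so p-values measure only the spread between these libraries. No other allele or agent is named for either group. The series title asks how many targets the miR-144/451 locus regulates in red cell development, and the comparison here was the level of these miRNAs in KO against WT.

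A miRNA hairpin yields a guide strand, which stays in an Argonaute protein and finds target mRNAs mainly through its seed, bases 2 to 8, and a passenger strand, most of which is degraded. The Pank host genes encode the kinase that starts coenzyme A synthesis, and miR-103 and miR-107 are transcribed with them. In liver and fat the family is known for lowering insulin sensitivity, partly through caveolin-1, and it is also known to target Dicer. Its guides are related to miR-15/16, a family that restrains the cell cycle, through a shared AGCAGC stretch.

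The hairpins were located in GRCm38 with GENCODE M21, each on the strand of its host. Mir103-1 lies at chr11:35782396-35782481, in intron 5 of Pank3. Mir103-2 lies at chr2:131288052-131288137, in intron 5 of Pank2. Mir107 lies on the minus strand at chr19:34820687-34820773, in intron 5 of Pank1. Mir103-1 is on the chromosome of the deleted locus, 42.3 Mb from Mir144. The RefSeq hairpins (GRCm38.p6) show how little separates the 3 genes, with the 5p and then the 3p mature strand in capitals:
Mir103-1: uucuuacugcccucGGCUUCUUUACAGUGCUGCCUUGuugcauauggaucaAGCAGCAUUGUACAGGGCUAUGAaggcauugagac
Mir103-2: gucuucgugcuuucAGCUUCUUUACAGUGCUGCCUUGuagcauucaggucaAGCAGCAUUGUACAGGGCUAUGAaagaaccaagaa
Mir107: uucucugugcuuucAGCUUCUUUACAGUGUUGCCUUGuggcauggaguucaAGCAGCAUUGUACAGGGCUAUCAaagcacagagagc

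Mir103-1 and Mir103-2 encode the same guide, and the guide of Mir107 differs from it at 1 of 23 bases, G22C, counted from the 5′ end. In the guides and their most abundant relatives, shown to compare seeds, capitals mark bases 2 to 8:
miR-103-3p: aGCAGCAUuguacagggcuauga
miR-107-3p: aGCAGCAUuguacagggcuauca
miR-16-5p: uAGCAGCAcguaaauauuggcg
miR-15b-5p: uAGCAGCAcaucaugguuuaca
miR-15a-5p: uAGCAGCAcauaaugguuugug
Among 1679 RefSeq mature miRNAs, the seed GCAGCAU occurred in miR-103-3p and miR-107-3p and in no other. The AGCAGC of miR-15/16 sits 1 base further from the 5′ end, so its seed is AGCAGCA.

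The passenger strands are the sequences that separate the genes, and capitals mark the bases at which they differ:
miR-103-1-5p: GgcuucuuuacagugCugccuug
miR-103-2-5p: AgcuucuuuacagugCugccuug
miR-107-5p: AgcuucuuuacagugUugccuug
From miR-103-1-5p to miR-103-2-5p the change is G1A, and from miR-103-2-5p to miR-107-5p it is C16U. The strand of Mir103-2 thus lies 1 base from each of the measured passengers, and whether its reads were counted in either row was not tested.

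The guide rows held a single measured signal. miR-103-3p had 97195, 129660 and 99164 counts in WT libraries 1 to 3 and 143336, 129229 and 188081 in KO libraries 4 to 6. miR-107-3p had 74, 145 and 54 counts more in WT and 101, 196 and 164 more in KO, a difference of 0.0544% to 0.151% of the row. The guide levels below therefore cannot be assigned to single genes, and miR-103-3p stands for both rows. Whether each shared read was counted in full in both rows or split between them is not given and was not tested. Both rows together held 0.868% to 0.958% of counts in WT and 1.57% to 1.77% in KO. The shares, ranks and ratios below are those of the miR-103-3p row alone.

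This near-identity was seen in other miRNA pairs according to where their sequences differ. Among the 441 miRNAs averaging 100 counts or more, 15 pairs of equal length differed at 1 base. In 4 pairs the counts agreed within 5% in every library, and in these the differing base was at positions 19 to 22. miR-103-3p and miR-107-3p were the closest pair, followed by miR-27a-3p and miR-27b-3p with a largest difference of 0.392%. In the other 11 pairs the differing base was at positions 9 to 18 and the largest difference ran from 5.05% to 99.1%. The pair just inside the 5% tolerance was let-7a-5p and let-7c-5p, at 2.25%, and the pair just outside let-7b-5p and let-7c-5p, at 5.05%. The measured passengers of this family differ at both base 1 and base 16, so they are not among these pairs. Their rows held different counts, and whether they share reads was not tested.

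**Figure D1:**
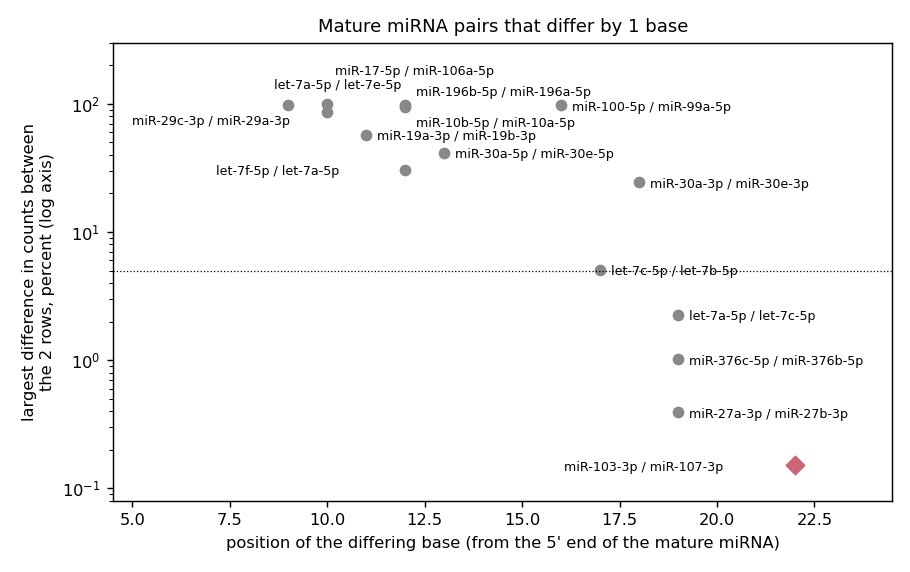
Each point is a pair of mature miRNAs that differ at 1 base, with the position of that base on the x axis and the largest difference between their counts in any of the 6 libraries on the y axis (percent, log scale); the dotted line is 5%. The miR-103-3p and miR-107-3p pair (red diamond) is the lowest, at 0.151%, and every pair under the line differs at position 19 or later.

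The level of the deleted locus matched the genotype labels. miR-451a, the red cell miRNA that Ago2 matures without Dicer, averaged 17.0% ± 3.43 of counts in WT and 0.0187% ± 0.00113 in KO (SD, n = 3 each). Libraries held 16243894 to 27089133 counts. The hepatocyte markers miR-122-5p, miR-192-5p, miR-194-5p and miR-802-5p were present in all 6, with sums of 33939 to 131616 counts per 1000000 in WT and 42261 to 102335 in KO. WT library 3 and KO library 6 had the highest sums. In bulk tissue, fewer cells of a type and less RNA per cell cannot be told apart.

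miR-103-3p was more abundant in all 3 KO libraries than in any WT library, and the size of the gap depended on the scale. As a share of all miRNA counts it took 0.469%, 0.479% and 0.434% in WT (Wilson 95% intervals 0.466 to 0.472, 0.476 to 0.481 and 0.431 to 0.437) and 0.882%, 0.784% and 0.782% in KO (0.878 to 0.887, 0.779 to 0.788 and 0.779 to 0.786). The means were 0.460% ± 0.0235 and 0.816% ± 0.0574 (SD, n = 3 each), a ratio of 1.77. These intervals hold counting error and nothing else, because amplified reads carried no molecular identifier and are not separate molecules. With the miR-107-3p row left out, miR-103-3p ranked 37th, 38th and 45th among all miRNAs in WT and 29th, 30th and 30th in KO.

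The deleted locus took a large share of WT counts, so that all other miRNAs together had a smaller share of the total in WT than in KO. TMM scaling, which sets the typical miRNA equal between libraries, gave miR-103-3p 5312, 5372 and 4964 counts per 1000000 (CPM) in WT and 7228, 7138 and 7208 CPM in KO. The groups did not overlap, and the KO libraries lay within a narrow band, with a coefficient of variation of 0.661% against 4.21% in WT, which the shares above did not show. The means were 5216 ± 219.8 and 7191 ± 47.5 CPM (SD, n = 3 each), a ratio of 1.38 and a log2 fold of 0.46 (SE 0.10).

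Across all miRNAs, edgeR's quasi-likelihood test with Benjamini-Hochberg adjustment called 4 of 876 higher in KO (0.457%) and 3 lower (0.342%), the lower ones being the products of the deleted locus. Of the 4 family rows, all of which passed the filter on low counts, 0 were called. The guide rows had an adjusted p of 0.143, and 2 rows, the guides, had an unadjusted p under 0.05, as did 84 miRNAs higher in KO (9.59%) and 15 lower (1.71%) among the 876. DESeq2 and limma-voom also called 0 of the family rows. The lowest KO value exceeded the highest WT value for 15.9% of the 876 miRNAs, and the highest KO value was under the lowest WT value for 5.94%; both guide rows were among the former, and neither passenger row was in either set. With no scaling factor, the median of all tested miRNAs was shifted by 0.34 on the log2 scale. There 58 of 876 were called higher (6.62%) and 3 lower. Among those called higher was miR-103-3p, at a log2 fold of 0.83 (SE 0.12, edgeR adjusted p = 0.0187). Relative to that median its fold was 0.49, against 0.48 as reported. Because the guide difference was known beforehand, this call is given as a description. When factors came from RLE, from the upper quartile or from TMM without the locus, the split was 1 higher and 3 lower. When any 1 library was left out, 0 or 1 miRNA was called higher and the log2 fold of miR-103-3p was 0.36 to 0.48.

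**Figure D2:**
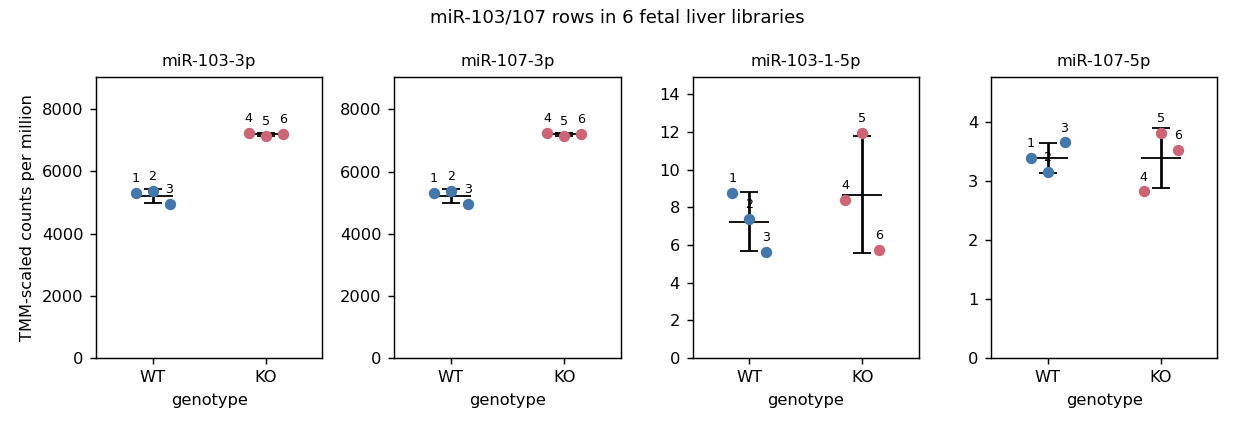
TMM-scaled counts per 1000000 (linear axes from 0) of the 4 family rows in WT libraries 1 to 3 and KO libraries 4 to 6; points are libraries, black lines the mean and bars the SD (n = 3 per genotype). The guide rows show the same separated groups, at 4964 to 5372 and 7138 to 7228 CPM for miR-103-3p, while both passenger rows overlap between the genotypes.

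Ratios to related miRNAs in the same library do not depend on scaling, and placed the guide higher against 2 of its 3 most abundant relatives without overlap. Against miR-16-5p, miR-103-3p stood at 5.28%, 4.33% and 5.65% in WT and 7.31%, 6.57% and 7.30% in KO. Against miR-15a-5p it stood at 94.5%, 99.7% and 119.5% in WT and 167.9%, 145.2% and 188.6% in KO, so the guide and miR-15a-5p were near equal in WT. Against miR-15b-5p it stood at 45.01%, 37.3% and 58.0% in WT and 71.1%, 54.8% and 71.2% in KO, where KO library 5 fell below WT library 3. These ratios use the guide difference already described and were not tested.

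**Figure D3:**
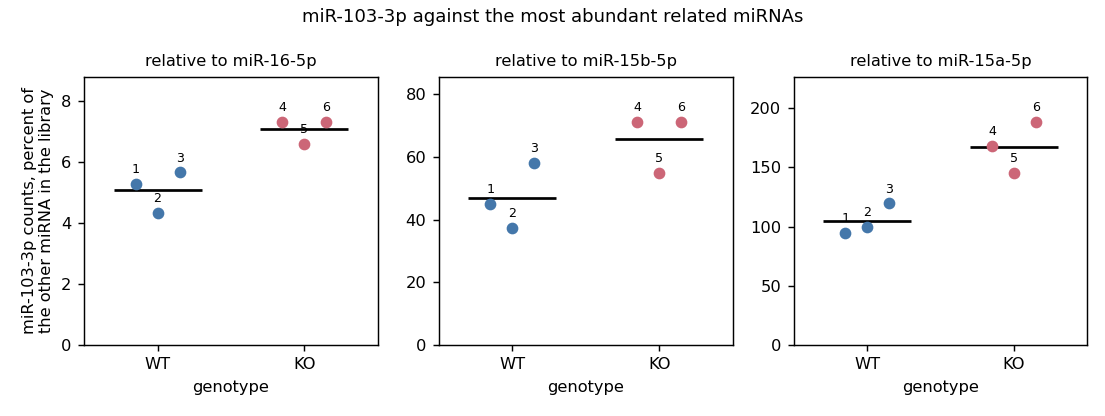
Counts of miR-103-3p as a percent of miR-16-5p, miR-15b-5p and miR-15a-5p counts in the same library (linear axes from 0), for WT libraries 1 to 3 and KO libraries 4 to 6; black lines are means. KO libraries lie above WT libraries for miR-16-5p and miR-15a-5p, and the groups overlap for miR-15b-5p.

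Most of the relatives themselves lay slightly below 0. RefSeq held 11 other mature miRNAs with AGCAGC starting at base 1 or 2, of which 8 were in the table and tested, and 0 of the 8 were called in either direction (edgeR adjusted p of 0.564 or more). Their median log2 fold was -0.13, against -0.014 for all 876, with 7 below 0 and 1 above. The mean of miR-16-5p was 104173 ± 18296 CPM in WT against 102063 ± 5628 in KO, that of miR-15b-5p 11582 ± 2920 against 11101 ± 1662 CPM, and that of miR-15a-5p 5053 ± 788 against 4348 ± 548 CPM (SD, n = 3 each). The rows of miR-195a-5p and miR-195b were near-identical in counts, so the 7 below 0 may hold 1 signal in 2 rows. They were the only ones of the 8 whose groups did not overlap. Both were lower in KO, at log2 folds of -0.30 and -0.31 (SE 0.17 each). Over all 876 miRNAs, 5.94% were lower without overlap. The member above 0 was miR-503-5p, with a log2 fold of 0.19 (SE 0.15). Whether the guide's fold differs from theirs was not tested.

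The passenger rows were rare and are named for single genes. miR-103-1-5p, the strand of the Pank3 hairpin, had 160, 178 and 112 counts in WT and 166, 216 and 149 in KO, or 8.74, 7.37 and 5.61 CPM and 8.37, 11.9 and 5.71 CPM. The groups overlapped, with KO library 5 the highest of the 6 and KO library 6 near the lowest. The means were 7.24 ± 1.57 and 8.67 ± 3.12 CPM (SD, n = 3 each), with a log2 fold of 0.26 (SE 0.32; edgeR adjusted p = 0.814). The fold depended on single libraries. It was -0.067 (SE 0.33) without KO library 5 and 0.036 (SE 0.36) without WT library 3. It was 0.41 (SE 0.37) without WT library 1 and 0.46 (SE 0.31) without KO library 6. With no scaling factor it was 0.62 (SE 0.33, edgeR adjusted p = 0.318), and it was not called under any alternative. The median of all tested miRNAs moved with the scaling as well. Relative to that median the fold was 0.27 as reported, 0.28 with no scaling factor and 0.27 to 0.29 under the other scalings.

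miR-107-5p, the strand of the Pank1 hairpin, had 62, 76 and 73 counts in WT and 56, 69 and 92 in KO. These are 3.39, 3.15 and 3.65 CPM in WT and 2.82, 3.81 and 3.53 CPM in KO, again with overlap and with KO library 4 the lowest. The means were 3.40 ± 0.253 and 3.39 ± 0.508 CPM (SD, n = 3 each), with a log2 fold of -0.0038 (SE 0.22; edgeR adjusted p = 0.999). This fold was positive with upper-quartile scaling, at 0.098, with no scaling factor, at 0.35, and without KO library 4, at 0.034. Relative to the median of all tested miRNAs it was 0.010 as reported. On that measure it was 0.0070 with upper-quartile scaling, 0.014 with no scaling factor and 0.054 without KO library 4. The guide's log2 fold was 0.46 (SE 0.10), beside 0.26 (SE 0.32) for miR-103-1-5p and -0.0038 (SE 0.22) for miR-107-5p. Whether the guide's fold differs from either was not tested. The passenger with more counts, miR-103-1-5p, had the larger spread, with a coefficient of variation of 21.7% in WT against 7.45% for miR-107-5p.

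**Figure D4:**
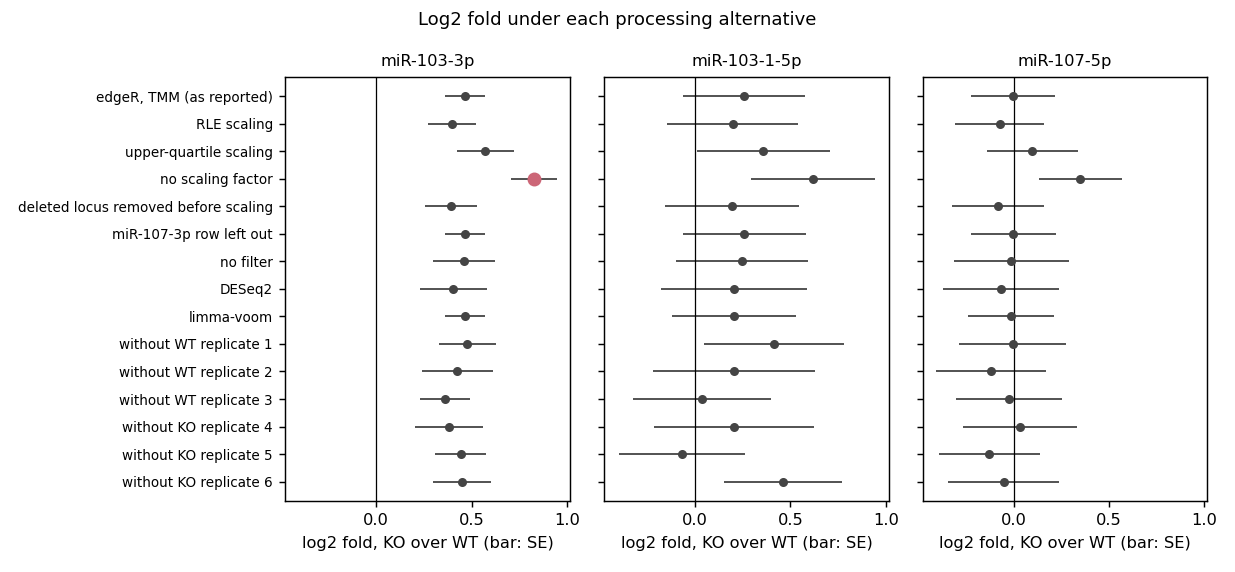
Log2 fold of KO over WT for miR-103-3p, miR-103-1-5p and miR-107-5p under each processing alternative; points are folds, bars 1 SE on each side, and the red point marks an adjusted p under 0.05. miR-103-3p lies between 0.36 and 0.83, miR-103-1-5p between -0.067 and 0.62, and miR-107-5p between -0.13 and 0.35.

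The family's hairpins were strongly one-sided. The summed passenger counts made up 0.228%, 0.196% and 0.186% of passenger plus miR-103-3p counts in WT (Wilson 95% intervals 0.200 to 0.260, 0.173 to 0.221 and 0.161 to 0.215) and 0.155%, 0.220% and 0.128% in KO (0.136 to 0.176, 0.196 to 0.247 and 0.113 to 0.145). Among 268 other hairpins with both arms listed and averaging 100 counts or more, the minor arm made up a median of 4.26% of arm counts. Only 24 of the 268 (8.96%) were more one-sided than the family's 0.179% over all libraries. Because the strand of Mir103-2 was not analysed here, its reads, where they were not counted in another row, are missing from these shares.

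The passenger to guide ratio was lower on average in KO, with overlap. This ratio holds the guide counts, whose higher level in KO was already known. Its direction is therefore not separate from the guide difference described above. On the log2 scale it was -8.77, -8.99 and -9.06 in WT and -9.33, -8.82 and -9.61 in KO, where KO library 5 lay among the WT libraries. The difference of KO minus WT was -0.31 (exact two-sided permutation p = 0.3, n = 3 each, 0.5 after adjustment over the 2 ratios tested; the smallest p that 3 against 3 can give is 0.1). The log2 ratio of miR-107-5p to miR-103-1-5p averaged -1.07 ± 0.397 in WT and -1.30 ± 0.525 in KO (SD, n = 3 each; exact two-sided permutation p = 0.5, also 0.5 adjusted), a difference smaller than either SD.

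The makeup of the passenger counts varied between libraries of the same genotype. miR-107-5p made up 27.9%, 29.9% and 39.5% of passenger counts in WT (Wilson 95% intervals 22.4 to 34.2, 24.6 to 35.8 and 32.7 to 46.6) and 25.2%, 24.2% and 38.2% in KO (19.97 to 31.3, 19.6 to 29.5 and 32.3 to 44.4). WT library 3 and KO library 6 were the high ones. The interval of KO library 6 lay above those of the other KO libraries, while that of WT library 3 overlapped those of both other WT libraries. These high libraries had the lowest miR-103-1-5p, 5.61 and 5.71 CPM, which enters the share itself and is not a separate observation. They also had the highest hepatocyte marker sums, 131616 and 102335 CPM against 33939 to 56126 CPM in the other 4. The part of hepatocyte RNA in this makeup was not tested. Among WT libraries the guide was lowest in library 3 on both scales. Among KO libraries, library 6 lay between the others in CPM and was the lowest as a share of all counts, at 0.782% against 0.784% in library 5.

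**Figure D5:**
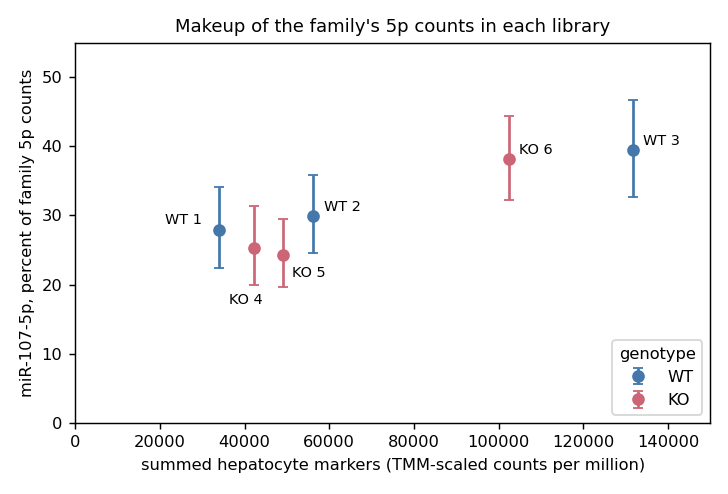
Share of the family's passenger (5p) counts taken by miR-107-5p (percent, bars are Wilson 95% intervals) against the summed level of 4 hepatocyte marker miRNAs (TMM-scaled counts per 1000000) per library, for 3 WT and 3 KO libraries. WT library 3 and KO library 6 lie to the right, at 39.5% and 38.2%, and the other 4 libraries at 24.2% to 29.9%.

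The miRNAs whose levels ran most like miR-103-3p over the 6 libraries were miR-98-5p, a let-7 family member, miR-298-5p, miR-1839-3p, miR-128-3p, a miRNA best known from neurons, and miR-3068-5p. Likeness was the root mean square difference of centred log2 CPM profiles, which was 0.072 for miR-98-5p and up to 0.0996 for miR-3068-5p, over 462 miRNAs with a mean of at least 10 CPM. WT libraries held 870.9, 901.4 and 845.9 CPM of miR-98-5p and KO libraries 1216, 1362 and 1200 CPM. Of miR-298-5p they held 1811, 1991 and 1897 CPM and 2799, 2412 and 2701 CPM. For each of the 5 the KO values lay above the WT values, which likeness to miR-103-3p already fixes, and their log2 folds ran from 0.31 (SE 0.14) for miR-128-3p to 0.61 (SE 0.17) for miR-3068-5p. They share the libraries, depth and scaling with the guide, and none was among the miRNAs called.

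Marker lists of other cell types did not separate the genotypes as the guide did. Of the 21 listed markers, the 3 products of the deleted locus were lower in KO without overlap and 0 were higher without overlap. Over all 876 tested miRNAs, 15.9% were higher and 5.94% lower without overlap. The marker sums for hepatocyte, myeloid, pan-blood, endothelial, mesenchymal and muscle miRNAs overlapped between WT and KO, while that of the erythroid list, which holds the deleted products, did not. The myeloid marker miR-223-3p came nearest to separating, from 15317 to 20385 CPM for WT and from 8637 to 16014 CPM for KO, and its part in the guide difference was not tested. No marker was at 0 in any library.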

How the data were processed

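Small RNA of mouse fetal liver was sequenced in 3 WT and 3 KO libraries. The authors deposited raw read counts per mature miRNA and, per the file headers, a percent per library, which equalled the count over the library total to within 5.0e-09 percentage points. Per the submitters' processing notes reads were trimmed with cutadapt; the aligner, annotation, genome build and rule for reads matching several miRNAs are not given in the sources used here. All 12 value columns were mapped by title. Replicate pairs differed beyond sampling noise (chi-square per degree of freedom at least 105.8).

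Counts were tested in R 4.3.3 with edgeR 4.0.16 (glmQLFit, glmQLFTest, TMM, filterByExpr, which kept 876 of 1626 miRNAs), with Benjamini-Hochberg adjusted p under 0.05 called. SE is the absolute log2 fold over the square root of F. DESeq2 1.42.0 and limma 3.58.1 (voom), other scalings, no filter, the miR-107-3p row left out, and each library left out were alternatives. CPM was computed from the TMM-scaled counts. In simulated counts over 855 tested miRNAs, 94.0% of those raised 4-fold and 32.0% of those raised 2-fold were called for this comparison. Ratios used 0.5 added counts and exact permutation tests (SciPy 1.17.1). Sequences came from RefSeq tables (GRCm38.p6; 1376 of 1679 mature names matched), positions from GENCODE M21.

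Named miRNAs were the family, the deleted products, the 3 most abundant relatives and the 5 most like miR-103-3p. The members and lists were chosen with earlier results of these data known. miR-503-5p, miR-195a-5p, miR-195b, miR-223-3p and the one-base pairs were named after their values were seen. The planned ratio of miR-103-2-5p to miR-103-1-5p was not run, and the ratio planned against both miR-103 passengers used miR-103-1-5p alone.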

Additional observations from a re-analysis of the deposited data

How the results depend on the processing

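The log2 fold of miR-103-3p was positive under all 14 alternatives, at 0.36 to 0.83, with edgeR, DESeq2 or limma-voom adjusted p of 0.0187 to 0.794. The guide was called under 1 of them, no scaling factor, at 0.83 for miR-103-3p and 0.83 for miR-107-3p. Relative to the median of all tested miRNAs, miR-103-3p stood at 0.49 there and 0.48 as reported. The number of miRNAs called higher was 4 as reported, 1 with RLE scaling, upper-quartile scaling or the deleted locus removed before scaling, 58 with no scaling factor and 10 with DESeq2, which also called 5 lower against 3. Leaving out 1 library at a time gave 0 to 1 called higher and 3 lower, 0.36 to 0.48 for both guide rows, -0.067 to 0.46 for miR-103-1-5p and -0.13 to 0.034 for miR-107-5p. The fold of miR-107-5p, -0.0038 as reported, changed sign to 0.098 with upper-quartile scaling, 0.35 with no scaling factor and 0.034 without KO replicate 4. The median of all tested miRNAs moved with these scalings, from -0.014 to 0.091 and 0.34. Relative to that median, miR-107-5p stood at 0.010 as reported, 0.0070 with upper-quartile scaling and 0.014 with no scaling factor. The fold of miR-103-1-5p changed to -0.067 without KO replicate 5. The cause of the changes on leaving out a library was not tested. The difference in the miR-107-5p to miR-103-1-5p log2 ratio was -0.23, and -0.53 to -0.0055 when 1 library was left out; that of passenger to guide was -0.31, and -0.53 to -0.13. A pseudocount of 1 or none kept the direction of both. The passengers had 56 to 216 counts a library. The one with more counts, miR-103-1-5p, had the larger SE, 0.32 against 0.22 for miR-107-5p. The part of depth in these errors was not tested. No paired analysis was possible because the WT and KO libraries carry different replicate numbers.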
